A study of Mus musculus with 12 samples.

Results

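The class II odorant receptor (OR) genes between 85 and 91 Mb of mouse chromosome 2 (mm10) were represented by 223 probe sets, out of 1072 class II and 141 class I OR probe sets and 35556 probe sets on the array. A probe set was taken as a member when the study's annotation of the OR probe sets gave it class II, chromosome 2 and a start in that window, and when its first symbol was not a pseudogene symbol. No measured value entered the choice. Of 250 class II probe sets in the window, 27 were left out as pseudogenes, and all 223 members had a value on every array.

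Total RNA of the main olfactory epithelium (MOE), the sheet of the nose that holds the olfactory sensory neurons (OSNs), was measured in 6 ΔJ mice and 6 wild-type mice, all labelled C57BL/6, with 1 Affymetrix gene array per mouse. ΔJ mice are homozygous for a CRISPR-Cas9 deletion of the J element, an enhancer within the class I OR cluster of chromosome 7, and the wild-type mice carried no deletion. The line was made in hybrid B6C3F1 eggs and crossed to C57BL/6NCrSlc mice, and was at an early backcross generation, so the mice were not fully inbred. There were 3 males and 3 females among the ΔJ mice and 2 males and 4 females among the wild-type mice. One ΔJ mouse and 2 wild-type mice were at P33 and the others at P30. A level below is the deposited log2 signal minus the 75th percentile of the same array. It depends on the probes, so it shows differences between mice for a probe set, and not the order of abundance among genes. In RNA of a whole tissue, fewer cells that express a receptor and less RNA per cell cannot be told apart.

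Each mature OSN transcribes a single OR gene from a single allele, and most receptors of the mouse are of class II, a family that expanded in land vertebrates. Class II genes lie in clusters on many chromosomes, and their choice depends on enhancers. The study describes the class II enhancers known from deletions as acting in cis on genes of nearby clusters. Receptor genes have a short coding exon with no intron in it, often after small untranslated exons, and neighbours in a cluster are often recent copies of each other. The comparison of ΔJ mice with wild-type mice asks, for these receptors, whether removing an enhancer that lies among class I genes on another chromosome goes with a change of class II receptor RNA.

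The members spanned 4.99 Mb, with a median distance of 18.9 kb between neighbouring starts. The first was Olfr987, at chr2:85330967, and the last, by start, was a probe set for Gm13769 that ended at chr2:90325126. There were 149 members on the minus strand and 74 on the plus strand, and the longest run of 1 strand, 36 members from Olfr1213 to Olfr1254, was on the minus strand. The widest distance between neighbouring starts was 141 kb, between Olfr995 and Olfr996. In the RefSeq annotation (GRCm38.p6) the same span held 220 protein-coding OR genes, 71 OR pseudogenes and only 3 other protein-coding genes. The symbols of 221 members were found in RefSeq, and its synonyms placed 215 of them in 47 numbered MOR families. MOR233 had 17 members, MOR174, MOR231 and MOR264 had 14 each, and MOR177 had 13.

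Similarity among neighbours bears on what a probe set measures, because 23 of the 223 probe sets carried more than 1 symbol. The first 50 bases of 3 such neighbours, from the start codon (RefSeq, GRCm38.p6, minus strand), are shown with the positions that differ among them in capitals.
Olfr1196: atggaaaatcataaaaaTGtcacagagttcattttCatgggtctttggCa
Olfr1197: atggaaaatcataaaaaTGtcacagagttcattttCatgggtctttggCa
Olfr1200: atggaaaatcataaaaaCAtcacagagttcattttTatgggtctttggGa
Olfr1196 (chr2:88701278-88701327) and Olfr1197 (chr2:88729548-88729597) were identical over these 50 bases, and Olfr1200 (chr2:88768264-88768313) shared 46 of 50 with Olfr1196. The array had a probe set for Olfr1197, Olfr1196 and Olfr1200 together, 1 for Olfr1196 and Olfr1197, and 1 for Olfr1200, so the signals of these genes cannot be fully separated. The 2 probe sets for Gm13769, which also carry Olfr1274-ps and Olfr1506, had identical values on all 12 arrays. They hold 1 measurement, but both are among the 223 members and are counted separately below.

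More distant members are shown from the same point, with the word ACNGANTT in capitals where it occurs. All of them but Olfr1264 are named again below.
Olfr1216: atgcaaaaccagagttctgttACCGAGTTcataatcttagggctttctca
Olfr1226: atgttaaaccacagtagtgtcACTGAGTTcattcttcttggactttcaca
Olfr1234: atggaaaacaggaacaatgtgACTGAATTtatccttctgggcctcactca
Olfr1253: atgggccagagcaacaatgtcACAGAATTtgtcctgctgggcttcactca
Olfr1254: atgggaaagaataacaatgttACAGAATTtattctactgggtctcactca
Olfr1062: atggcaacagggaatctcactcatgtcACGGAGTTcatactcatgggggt
Olfr1264: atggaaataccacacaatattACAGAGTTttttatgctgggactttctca
Olfr73: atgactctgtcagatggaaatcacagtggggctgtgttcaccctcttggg
All 8 are on the minus strand, at chr2:89014013-89014062 (Olfr1216), chr2:89193983-89194032 (Olfr1226), chr2:89363378-89363427 (Olfr1234), chr2:89752777-89752826 (Olfr1253), chr2:89789301-89789350 (Olfr1254), chr2:86423625-86423674 (Olfr1062), chr2:90022015-90022064 (Olfr1264) and chr2:88035088-88035137 (Olfr73). Olfr1216 and Olfr1226, both of MOR233, shared 36 of 50 bases, and Olfr1254 shared 40 with Olfr1253 and 41 with Olfr1234, all of MOR231. The word was chosen after some of these sequences were seen. On the gene's strand it was present in 84 of 129 members whose RefSeq model begins at a start codon (65.1%). The share was 37.1% of 587 class II models, which include the members. It was 3.7% of 81 class I models and 12.1% of all 1915 models that begin at ATG. With both strands searched the shares were 65.1%, 37.8%, 3.7% and 15.1%.

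The 250 bases before the start of the RefSeq model were available for 181 members in 182 entries, 129 of which begin at the start codon, so these windows are not all promoters. A homeodomain word, TAAT followed by TA, TG, GA or GG, was present on either strand in 117 of 182 entries (64.3%). The share was 58.4% of 808 class II entries, 54.6% of 108 class I entries and 22.8% of 32851 entries in all. The class II entries include those of the members. CCCNNGGG, a core of the O/E site, was in 4 of 182 (2.2%), against 2.72% of class II, 2.78% of class I and 11.8% of all entries. The study used a different O/E-like word, YYYCARRRR, which was not searched here, so these shares do not count O/E-like sites as the study defined them. AAACTTTTC, the conserved word of the J element, was in 0 of the 182, against 3 of 808 class II entries (0.371%), 0 of 108 class I entries and 0.362% of all entries. Each count is of letters in a window and not of binding.

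Before the results, 2 features of the arrays need stating. The array of ΔJ replicate 5 stood apart. The SD of its members' deviations from the mean of replicates 4 to 6 was 0.38 (log2), against 0.12 to 0.20 on the other 11 arrays, each taken within replicates 1 to 3 or 4 to 6. Of its 223 members, 10 were lower by more than 1, and on the other arrays 1 member deviated by as much, upwards. Replicates 4 to 6 of both genotypes differed from replicates 1 to 3 over the whole array, with an SD of the array's log2 signals of 2.20 to 2.23, against 2.07 to 2.13 in replicates 1 to 3. The labels give no batch, and all 3 P33 mice were in replicates 4 to 6. Results are therefore given with and without ΔJ replicate 5. Markers of mature OSNs, such as Omp, were present in all mice: the mean level of 11 measured markers was 3.01 to 3.20 across ΔJ mice, against 3.03 to 3.19 across wild-type mice, and it was lowest in ΔJ replicate 5.

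No member of the cluster met the criteria of the study, a fold change beyond 1.3 with an adjusted p under 0.05 (limma with Benjamini-Hochberg adjustment over all OR probe sets), whereas 6.27% of all OR probe sets did. The called probe sets were mostly class I: 74 of the 130 intact class I probe sets, and 0 of the 768 class II probe sets outside the cluster. Among the members, 2 of 223 had an unadjusted p under 0.05 (0.897%), against 8.33% of all OR probe sets and 0.521% of the class II probe sets outside the cluster. The ΔJ and wild-type values overlapped in all 223 members, while they did not overlap in 5.36% of all OR probe sets. Without ΔJ replicate 5 no member was called and 5 had an unadjusted p under 0.05. The count was then 7 of the 768 class II probe sets outside the cluster and 104 of all OR probe sets. With the replicate number as a block, which is not a known pairing of mice, no member was called and 7 had an unadjusted p under 0.05. With that block the count was 28 of the 768 class II probe sets outside the cluster and 147 of all OR probe sets.

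The mean level of the 223 members was -2.08 ± 0.23 in ΔJ mice and -2.06 ± 0.20 in wild-type mice (SD, n = 6 each). Its lowest, median and highest values were -2.44, -2.04 and -1.80 in ΔJ mice, and -2.27, -2.10 and -1.80 in wild-type mice. The groups overlapped, and the lowest mouse of all was ΔJ replicate 5. The difference between genotypes was -0.011, which is far smaller than the SD between mice, and it was 0.061 without ΔJ replicate 5. It was -0.099 with sex and age as covariates and -0.097 among P30 mice alone. The SD between mice includes the shift between replicates 4 to 6 and 1 to 3. Over both genotypes the SD was 0.081 in replicates 1 to 3, and 0.061 in replicates 4 to 6 without ΔJ replicate 5. Differences of the mean level were not tested. Within replicates 1 to 3 the difference between genotypes was -0.012. Within replicates 4 to 6 it was -0.011, and it was 0.082 there without ΔJ replicate 5.

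**Figure D1:**
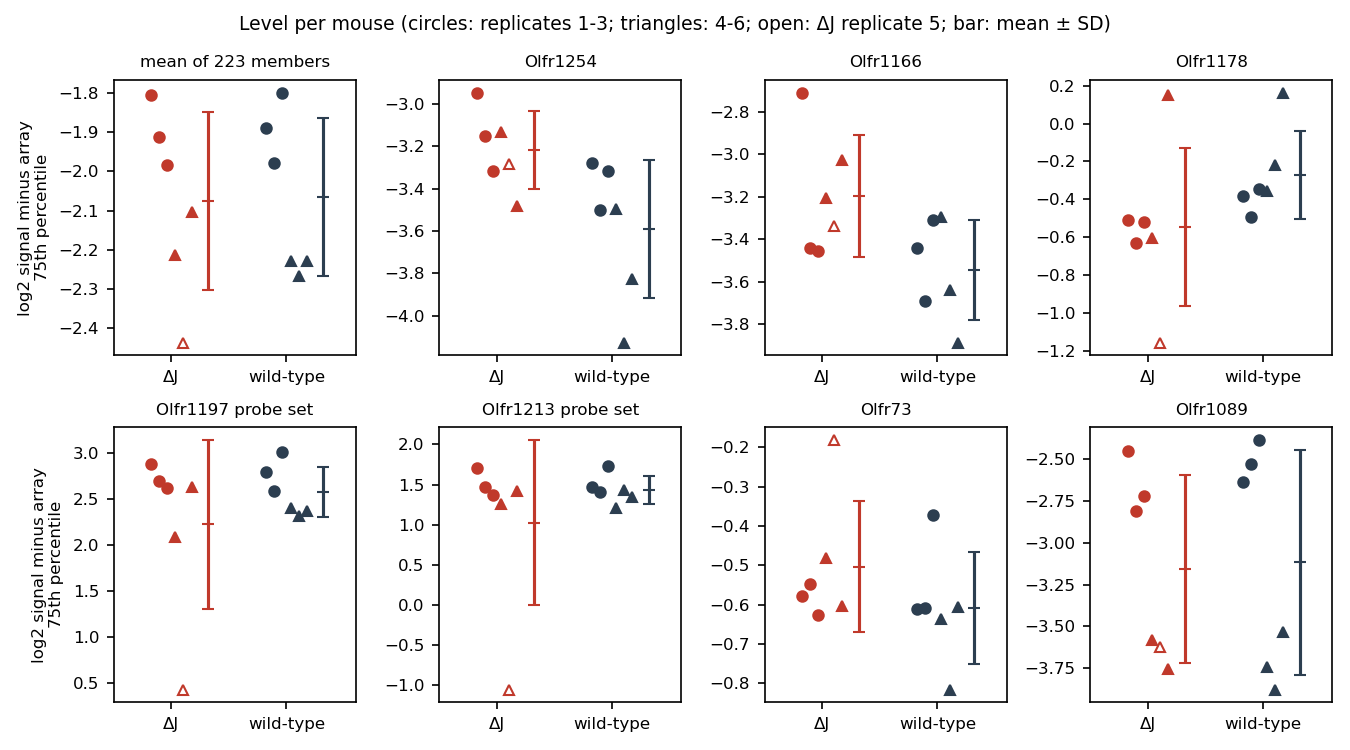
Level of each mouse (log2 signal minus the array's 75th percentile) for the mean of the 223 members and for 7 members, with ΔJ mice at the left and wild-type mice at the right of each panel; bars are the mean ± SD of 6 mice, circles replicates 1 to 3, triangles replicates 4 to 6 and the open triangle ΔJ replicate 5. The genotypes overlap in every panel, and ΔJ replicate 5 is the lowest mouse for the Olfr1197 and Olfr1213 probe sets and the highest for Olfr73.

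The fold changes of the members lay close to 0. Their median log2 fold change, ΔJ over wild-type, was -0.011, with a range of -0.40 to 0.37, and 102 were above 0 and 121 below. Over all OR probe sets the median was -0.048, over the 768 class II probe sets outside the cluster it was -0.039, and over the 130 class I probe sets it was -0.52. Without ΔJ replicate 5 the members' median was 0.053, and 156 of 223 were above 0. The class II probe sets outside the cluster also moved up without that mouse, to a median of 0.031, with 473 of 768 above 0. Class II probe sets of chromosome 9 had a median of 0.059, with 99 of 133 above 0. Those of chromosome 11 had a median of -0.0080, with 36 of 81 above 0. The 95% interval of the fold change lay within 1.3-fold in both directions for 92 members and within 2-fold for 217. When a term for replicates 4 to 6 against 1 to 3 was in the model, 170 members had an interval within 1.3-fold, and 191 had one when ΔJ replicate 5 was also left out. For the remaining members a change of 1.3-fold was not excluded at this number of arrays.

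**Figure D2:**
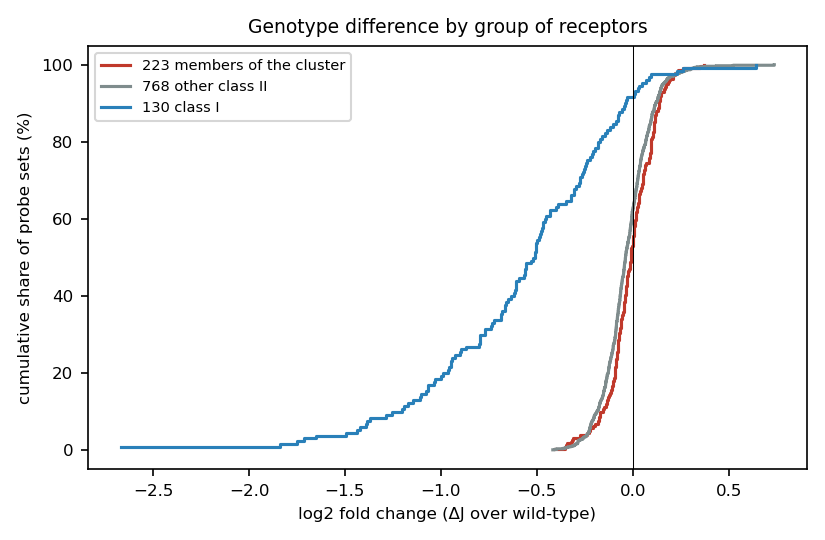
Cumulative share of probe sets (%) against the log2 fold change, ΔJ over wild-type, for the 223 members, the 768 other intact class II probe sets and the 130 intact class I probe sets. The members' curve crosses 0 near its middle, as 121 of 223 lie below 0, while 119 of 130 class I probe sets do.

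Olfr1254, a MOR231 receptor near the distal end of the cluster (chr2:89788406-89789350, minus strand), had the smallest p of the members. Its lowest, median and highest levels were -3.48, -3.22 and -2.95 in ΔJ mice, and -4.13, -3.50 and -3.28 in wild-type mice. The groups overlapped, and the lowest values were those of wild-type replicates 5 and 6, both P33 mice. The log2 fold change was 0.37 ± 0.15 (SE), with a 95% interval of 0.06 to 0.69 and an adjusted p of 0.329 (limma), and the adjusted p was 0.0571 with the replicate block. Without wild-type replicate 5 the fold change was 0.27.

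Olfr1166, a MOR174 receptor (chr2:88123360-88124993, minus strand), had levels of -3.46, -3.27 and -2.71 in ΔJ mice (lowest, median, highest) and -3.89, -3.54 and -3.30 in wild-type mice. The highest value was that of ΔJ replicate 1, and without that mouse the log2 fold change was 0.25, against 0.35 ± 0.15 (SE) with all mice (limma, adjusted p = 0.401). Y-linked genes, which have no transcript in the 7 females, give a rough guide to background. As a level depends on the probes, they do not show whether either receptor was at background. Uty averaged -4.69 and Eif2s3y -4.99 in the females, lower than the mean of either receptor in either genotype. Only Kdm5d, the highest of the 3 measured Y-linked genes, was near both receptors, with a female mean of -3.72. The mean level of 27 members was below that value, and 0 of these 27 were called.

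The next members by p were Olfr1062, with a log2 fold change of 0.23, Olfr1173 and Olfr1079, with 0.21 each, Olfr1054, with 0.17, and Olfr1082, with 0.22. Another 3 had lower levels in ΔJ mice by estimate: Olfr1178 (-0.27), Olfr1193 (-0.32) and Olfr1239 (-0.18). The fold changes of Olfr1178 and Olfr1193 were -0.15 and -0.12 without ΔJ replicate 5. Without wild-type replicate 5 those of Olfr1079 and Olfr1082 were 0.12 and 0.13, and without wild-type replicate 3 that of Olfr1239 was -0.12. None passed the test, with adjusted p-values of 0.923 or more (limma). Olfr1062, a MOR185 receptor, had levels of -1.79, -1.54 and -1.13 in ΔJ mice (lowest, median, highest) and -1.93, -1.72 and -1.52 in wild-type mice, which overlapped.

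Ligands of 3 members are well known in mouse. Olfr73, the eugenol receptor mOR-EG, had levels of -0.63, -0.56 and -0.18 in ΔJ mice (lowest, median, highest) and -0.82, -0.61 and -0.37 in wild-type mice, with a log2 fold change of 0.11 ± 0.11 (SE), and of 0.041 without ΔJ replicate 5, the highest mouse. Olfr74, the ethyl vanillin receptor mOR-EV, had levels of -3.14, -2.54 and -1.88 in ΔJ mice and -2.82, -2.48 and -1.99 in wild-type mice, with a log2 fold change of -0.044 ± 0.20 (SE), and of -0.013 without ΔJ replicate 5. Olfr1019, which responds to a component of fox odor, had levels of -0.87, -0.74 and -0.61 in ΔJ mice and -0.82, -0.72 and -0.53 in wild-type mice, with a log2 fold change of -0.039 ± 0.096 (SE), and of -0.022 without ΔJ replicate 5. The genotypes overlapped for all 3. The 95% intervals were -0.13 to 0.34 for Olfr73, -0.47 to 0.38 for Olfr74 and -0.24 to 0.17 for Olfr1019, so that a fold of 1.3 in either direction lies outside the interval for Olfr73 and Olfr1019.

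Along the cluster, in windows of 0.5 Mb with 6 to 30 members, the median log2 fold change ranged from -0.055 to 0.045. It was lowest in the last window, from 90 Mb, where 11 of 14 members were below 0, and highest from 86 Mb, where 20 of 30 were above 0. Without ΔJ replicate 5 the medians of all 11 windows were above 0, between 0.016 and 0.089. The median over the class II probe sets outside the cluster was then 0.031. By family, 10 of 11 members of MOR225, which holds Olfr1196, Olfr1197 and Olfr1200, were below 0 with all mice, with a median of -0.094, and the median was 0.0037 without ΔJ replicate 5. All 6 members of MOR188 were above 0, with a median of 0.064, and of 0.066 without that mouse. Families were not tested.

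**Figure D3:**
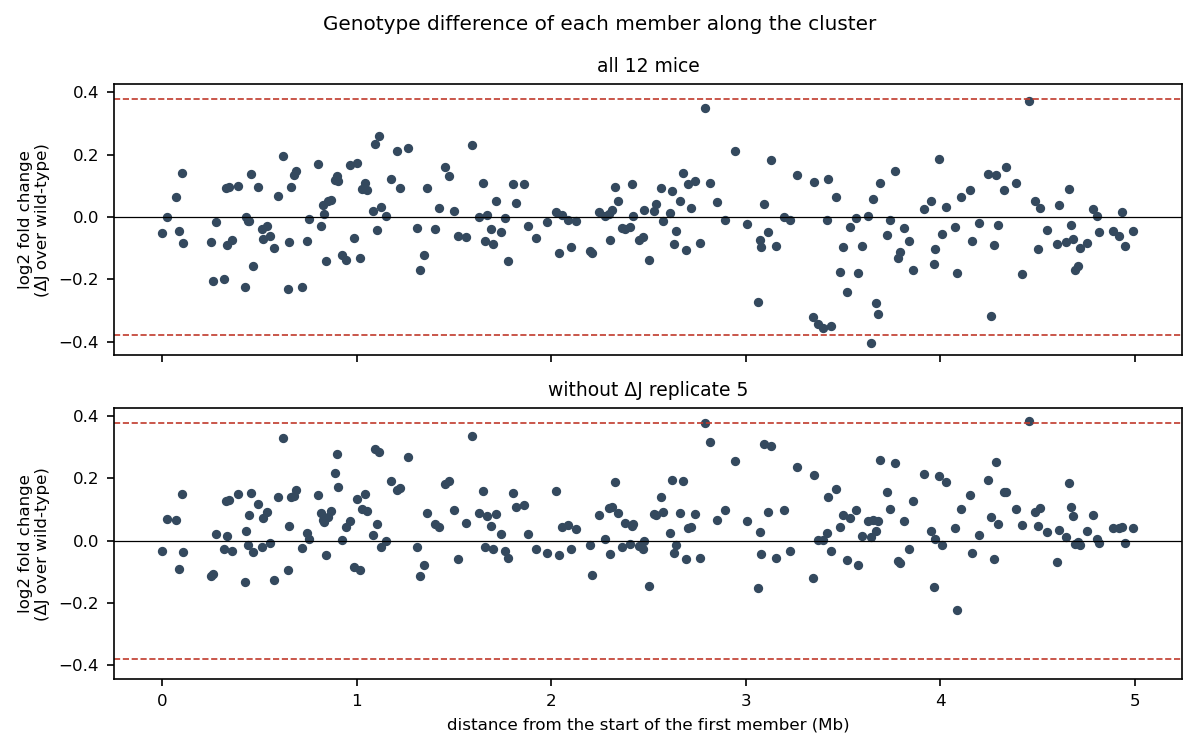
Log2 fold change of each member, ΔJ over wild-type, against the distance (Mb) of its start from the start of the first member, with all 12 mice (top) and without ΔJ replicate 5 (bottom); dashed lines mark a 1.3-fold change in either direction. The lowest point of the top panel, -0.40 at 3.64 Mb (the Olfr1213 probe set), is at 0.013 in the bottom panel.

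Those low points were the members with the largest shortfall in ΔJ replicate 5. The Olfr1213 probe set, of MOR233, which also carries Gm13762, was at -1.06 in that mouse and at 1.25 to 1.70 in the other 5 ΔJ mice, against 1.20 to 1.73 in wild-type mice. Its log2 fold change was -0.40 with all mice and 0.013 without ΔJ replicate 5. The probe set for Olfr1197, Olfr1196 and Olfr1200 was at 0.43 in ΔJ replicate 5 and at 2.09 to 2.88 in the other 5 ΔJ mice, against 2.32 to 3.00 in wild-type mice. In both, the difference between genotypes rested on 1 mouse: the log2 fold change of the Olfr1197 probe set was -0.35 with all mice and 0.0037 without it.

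Olfr1216, also of MOR233, was at -2.11 in ΔJ replicate 5 and at -0.60 to 0.44 in the other 5 ΔJ mice, against -0.35 to 0.38 in wild-type mice. Olfr1246 was at -3.38 in ΔJ replicate 5 and at -1.84 to -0.44 in the other 5 ΔJ mice, against -1.62 to -0.57 in wild-type mice. Relative to the mean of replicates 4 to 6, the mouse was lower by more than 1 also for Olfr1196, Olfr1200, Olfr1215, Olfr1226, Olfr1193 and Olfr1202. Of these 10 members 9 start between 88 and 89.5 Mb, a stretch that holds 63 of the 223 members. The probe sets of Olfr1196, Olfr1197 and Olfr1200, whose signals cannot be fully separated, are among these 9. Of the 31 members that were lower by more than 0.5 in this mouse, 18 start in the stretch. The threshold of 1 and the stretch were set after the values were seen, and no test was made.

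The shortfall was not limited to the cluster. In ΔJ replicate 5, 31 of 223 members (13.9%) were lower by more than 0.5 and 0 were higher by as much, against 141 of 768 class II probe sets outside the cluster (18.4%) that were lower. Beyond 1, the counts were 10 of 223 (4.48%) and 15 of 768 (1.95%). In the same mouse the median deviation was -0.10 for 11 mature OSN markers, -0.12 for 6 immature OSN markers, -0.12 for 5 basal and progenitor markers and -0.12 for 5 sustentacular markers. It was 0.16 for 4 immune markers and 0.30 for 3 bulb and glia markers, and Alas2, the 1 measured blood marker, was at 0.65. Single mature OSN markers ranged from -0.64 (Gnal) to 0.33 (Gng13). For 17 genes of OR choice and feedback the median was -0.10, with a range from -0.59 (Emx2) to 0.23 (Lbr). The part of these genes in the shortfall was not tested.

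**Figure D4:**
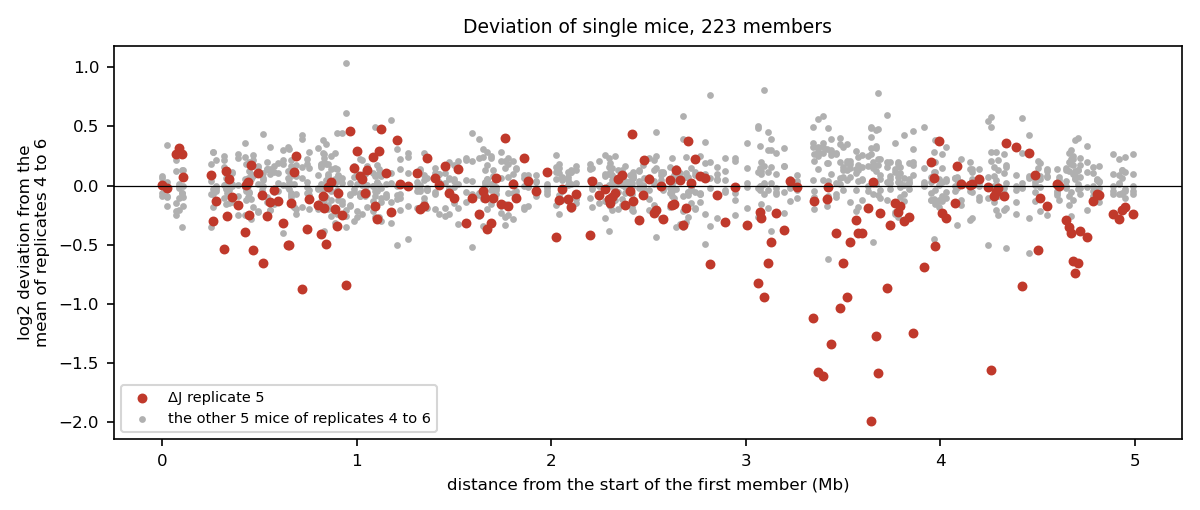
Deviation (log2) of each member in single mice from the mean of replicates 4 to 6, against the distance (Mb) of its start from the start of the first member, for ΔJ replicate 5 (red) and the other 5 mice of these replicates (grey). The lowest red point is the Olfr1213 probe set, at -1.99 and 3.64 Mb, and 10 red points lie below -1.

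The residual SD of a member within genotype had a median of 0.27 (log2) and ranged from 0.091 to 0.83. It was largest for Olfr1246, Olfr1216, Olfr1213, Olfr1197 and Olfr1196, then for Olfr1200, Olfr1215, Olfr1089, Olfr1253 and Olfr1181. With the difference between replicates 4 to 6 and 1 to 3 removed the median was 0.18, as it was for the class II probe sets outside the cluster. Members that lie next to each other varied together somewhat more than distant ones. After removal of genotype and of that difference, the median Pearson correlation over 12 mice was 0.35 for 216 adjacent pairs with no shared symbol, 0.25 for pairs with starts 50 to 500 kb apart and 0.20 for pairs over 2 Mb apart. Without ΔJ replicate 5 these medians were 0.30, 0.22 and 0.20. Pairs of the same MOR family had a median of 0.34 and pairs of different families 0.22. All pairs share arrays and RNA samples, so these values describe the arrays, and 23 pairs that share a symbol, with a median of 0.67, may share transcripts.

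Apart from the identical Gm13769 pair, the highest correlations were among the probe sets of Olfr1196, Olfr1197 and Olfr1200, at 0.995 to 0.997 for the 3 pairs. They were 0.95 to 0.96 without ΔJ replicate 5. The pair of Olfr1200 and the Olfr1213 probe set, 206 kb apart and of different MOR families, had 0.99 with all mice and 0.84 without that mouse.

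The split into replicates 4 to 6 and 1 to 3 gave more calls among the members than genotype, sex or age. It was chosen because the array values of these replicates were known to differ in spread. Its calls are therefore a description and not a test on a par with those of the labelled factors. With genotype in the model, 143 members (64.1%) were lower in replicates 4 to 6 at an adjusted p under 0.05 (limma), against 54.1% of all OR probe sets, and 2 were higher. The mean level of the members was -2.44 to -2.10 in replicates 4 to 6 and -1.98 to -1.80 in replicates 1 to 3, with no overlap. The median difference of the members was -0.36, and 208 of 223 were below 0. Without ΔJ replicate 5, 142 members were lower at the same threshold. The size depended on the scaling, as the subtracted 75th percentile was itself 8.53 to 8.56 in replicates 4 to 6, against 8.38 to 8.42 in replicates 1 to 3. With no shift of the arrays 81 members (36.3%) were lower and 6 higher, against 27.1% of all OR probe sets that were lower, and the members' median was -0.22. The median over all probe sets of the array was -0.095 with the percentile subtracted and 0.046 with no shift. Of the 27 members below the level of Kdm5d in females, 17 were among those that differed.

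Olfr1089, a MOR193 receptor, was at -3.88 to -3.53 in replicates 4 to 6 and at -2.81 to -2.38 in replicates 1 to 3, a difference of -1.10 ± 0.094 (SE). Olfr1234, of MOR231, was at -2.92 to -2.33 in replicates 4 to 6 and at -1.80 to -1.51 in replicates 1 to 3, a difference of -0.998 ± 0.098 (SE). For both receptors, replicates 4 to 6 and replicates 1 to 3 did not overlap, while the genotypes did. Olfr1217 (-0.93) and Olfr1137 (-0.66) were also among those with the smallest p, as was Olfr1248, which lay at -5.05 or below on every array, under the level of Kdm5d in females. Olfr1039, of MOR185, and Olfr1052, of MOR172, ran the other way, with differences of 0.74 and 0.28. In MOR231, 13 of 14 members differed at the same threshold, and in MOR185 3 of 9 did. Olfr74 fell by 0.62 in replicates 4 to 6, whereas Olfr73 differed by 0.0027 on this scale.

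**Figure D5:**
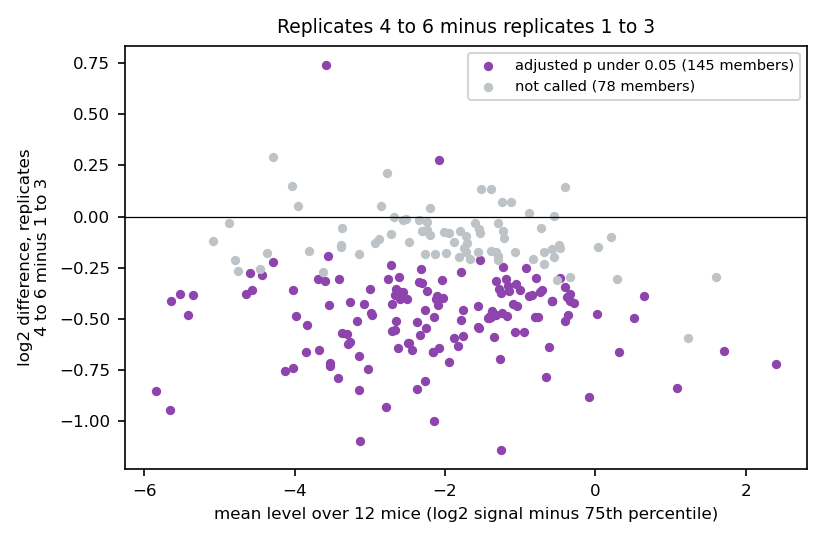
Log2 difference of each member between replicates 4 to 6 and replicates 1 to 3 against its mean level over 12 mice (log2 signal minus the array's 75th percentile); coloured points had an adjusted p under 0.05. Most points lie below 0, and Olfr1039 is the point near 0.74.

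Sex and age gave no member with an adjusted p under 0.05 in a limma model of genotype, sex, age and replicate set (4 to 6 against 1 to 3). Without ΔJ replicate 5, which was a female, the count was also 0 for each. For sex, 12 members (5.38%) had an unadjusted p under 0.05, against 6.68% of all OR probe sets, and 11 of the 12 were higher in males. The exception was Olfr1251, of MOR231, which was lower in males by estimate (-0.41 ± 0.10, SE), although males ranged from -2.92 to -1.96 and females from -2.37 to -1.59. Olfr1222, of MOR233, ranged from 0.067 to 0.45 in males and from -0.22 to 0.060 in females, without overlap, and its difference was 0.28 ± 0.093 (SE). Olfr1179, Olfr1269 and the Gm13769 probe sets had the next smallest p. The unadjusted counts and directions for sex are from all 12 mice, ΔJ replicate 5 included. Directions over all OR probe sets were not counted, so the lean towards males cannot be compared with theirs.

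For age, 9 members (4.04%) had an unadjusted p under 0.05, against 6.68% of all OR probe sets. Olfr1178, a MOR225 receptor, was at -0.22 to 0.16 in the 3 P33 mice and at -1.16 to -0.34 in the 9 P30 mice, without overlap. Its difference was 0.70 ± 0.21 (SE, limma, adjusted p = 0.484), and the lowest P30 value was that of ΔJ replicate 5. Olfr1023 (0.41), Olfr1254 (-0.45), Olfr1214 (-0.50) and Olfr1043 (0.42) followed. For a genotype effect that differs between the sexes, 5 members (2.24%) had an unadjusted p under 0.05, against 2.8% of all OR probe sets, and none had an adjusted p under 0.05 (limma). Olfr1199 had the smallest of these, with an adjusted p of 0.951, and its mean level was below that of Kdm5d in females.

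The genes that share the region or act on receptor choice gave no call either. In a limma fit over all 35556 probe sets, 16 of the 18 listed protein-coding genes other than OR genes that start in the window had a probe set, and 0 were called, with 0 at an unadjusted p under 0.05. Of the 3 that lie among the receptors, Fads2b, a fatty acid desaturase relative, had a log2 fold change of -0.16 ± 0.20 (SE), Pramel7, of the PRAME family, -0.26 ± 0.22 and its relative Pramel6 -0.14 ± 0.13. The smallest p in the window was that of Ptpmt1, a mitochondrial phosphatase, with 0.18 ± 0.088, followed by Fnbp4 (-0.12) and Aplnr, the apelin receptor (-0.087).

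All 17 genes of a list of OR choice and feedback had a probe set. Lhx2, a homeodomain factor that binds OR enhancers, averaged 3.11 in ΔJ mice and 3.11 in wild-type mice, and its partner Ldb1 averaged 2.64 in ΔJ mice and 2.65 in wild-type mice. The list had 0 calls and a median log2 fold change of -0.011. Over all 9 lists of OSN, progenitor, supporting, immune, blood, glial and vomeronasal cells and of OR choice, 53 of 59 entries were measured, 0 were called and 0 had an unadjusted p under 0.05 (limma), with some genes on 2 lists. The mean of 4 immune markers lay between -0.45 and 0.28 across ΔJ mice, against -0.45 to -0.029 across wild-type mice.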

How the data were processed

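MOE RNA of 12 mice was hybridised to Affymetrix Mouse Gene ST arrays. Per the labels, the authors made the deposited log2 signals with Expression Console (version not given in the sources used here), 1 value per probe set and array. From these, the 75th percentile of each array was subtracted, as in the study's methods. ΔJ and wild-type mice were compared in R 4.3.3 by limma (version 3.58.1) with linear models and eBayes, genotype being the only term, with Benjamini-Hochberg adjustment over all OR probe sets. Sex, age and replicates 4 to 6 against 1 to 3 were fitted as further terms. Intervals are 95% intervals of the moderated fit. The number of arrays limits the precision.

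The replicate number from the labels was also fitted as a block. Same-numbered mice deviated together over all probe sets (r of 0.18 to 0.44 for the 6 pairs), but only ΔJ replicate 4 correlated best with its own number. The best wild-type partners of ΔJ replicates 1, 2 and 3 were replicates 3, 3 and 2. Those of ΔJ replicates 5 and 6 were replicates 4 and 5. Some same-numbered mice also differed in sex or age. The correlations therefore do not show a pairing by number, and the block is an alternative setting only.

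The members and gene lists were chosen with earlier results of these data known. Named members are those with the smallest p of each contrast, the highest and lowest levels, the largest residual SD, the ends of the cluster and receptors with known ligands. The study's own fold changes and p-values were not used. Gene symbols came from the study's probe annotation, and other genes from the platform annotation. Sequences are from RefSeq (GRCm38.p6).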

Additional observations from a re-analysis of the deposited data

Results flagged for a closer look

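In groups of 6 mice, a value was singled out when its gap to the nearest mouse took more of the group's range than Dixon's test allows. Of 94 groups looked at, 8 were. The groups were of the mean level and of the named members, some of which were picked for a large residual SD or a small p. The chance rate of about 1 in 20 holds for groups not chosen by their values, so it does not apply here. The gap in ΔJ replicate 5 was 0.678 of the range of ΔJ mice for the probe set of Olfr1197, Olfr1196 and Olfr1200, 0.727 for that of Olfr1196 and Olfr1197, 0.837 for that of Olfr1213, 0.638 for Olfr1200 and 0.709 for Olfr1226, low in each. These probe sets are not independent. The same mouse was high for Olfr73, with a gap of 0.674, at -0.18 against -0.48 in the nearest ΔJ mouse. ΔJ replicate 6 was low for Olfr1095 (gap 0.665), at -6.04 against -5.57 in the nearest ΔJ mouse, both below the level of Kdm5d in females. Wild-type replicate 3 was high for Olfr1222 (gap 0.762), at 0.45 against 0.067 in the nearest wild-type mouse.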

How the results depend on the processing

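No member was called under any alternative run. The number of members with an unadjusted p under 0.05, 2 in the reported fit, was 5 with a median shift, 6 with quantile normalization, 7 with the replicate block, 4 with replicates 4 to 6 against 1 to 3 as a block, 0 with P30 mice only, 5 in replicates 1 to 3, 6 in replicates 4 to 6, and 11 without ΔJ replicate 5 and with the same block, a choice made after the data were seen. In the last of these runs, 23 of the 768 class II probe sets outside the cluster and 148 of all OR probe sets had such a p. Leaving out 1 mouse gave 0 to 5 members. The count was 0 without ΔJ replicate 1, wild-type replicate 5 or wild-type replicate 6. It was 1 without wild-type replicate 2 and 5 without ΔJ replicate 5. The median log2 fold change then ranged from -0.064 (without ΔJ replicate 1) to 0.053 (without ΔJ replicate 5), and the difference of the mean level from -0.066 to 0.061. The SD of the mean level between mice of a genotype was 0.22, which includes the shift between replicates 4 to 6 and 1 to 3. With sex and age as covariates the median was -0.10, and with P30 mice only it was -0.088. The members that differed between replicates 4 to 6 and 1 to 3 were 145 in the reported fit, 87 with no shift of the arrays, and 128 to 151 with 1 mouse left out. The replicate number as a block changed no call. Causes were not tested.

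Signs of fold changes that passed no test turned in some settings. With a median shift, Olfr1089 was at 0.0033 and Olfr1019 at 0.0036, and with quantile normalization Olfr1089 was at 0.015 and Olfr74 at 0.016. With sex and age as covariates the Olfr1110 probe set was at -0.0035 and Olfr1181 at -0.11, and with P30 mice only they were at -0.021 and -0.17. In replicates 1 to 3 Olfr1246 was at 0.026, Olfr1253 at 0.00033, Olfr74 at 0.020 and Olfr73 at -0.054. In replicates 4 to 6 Olfr1089 was at 0.064, Olfr1181 at -0.13 and Olfr1019 at 0.0075. Without ΔJ replicate 5 and with the same block, Olfr1226 was at 0.088, Olfr1263 at 0.063 and Olfr1216 at 0.0081. With 1 mouse left out, the ranges that crossed 0 were -0.49 to 0.0037 for the Olfr1197 probe set, -0.47 to 0.0031 for that of Olfr1196, -0.54 to 0.013 for Olfr1213, -0.31 to 0.13 for Olfr1226, -0.15 to 0.080 for Olfr1263, -0.51 to 0.076 for Olfr1246, -0.44 to 0.064 for Olfr1216, -0.40 to 0.030 for Olfr1215, -0.34 to 0.049 for Olfr1253, -0.19 to 0.11 for Olfr1089, -0.12 to 0.31 for Olfr1181 and -0.17 to 0.084 for Olfr74.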
